A study of Homo sapiens with 61 samples.

Results

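ATF2, ATF7 and CREB5 (here the ATF2-type factors) and CREB1, CREM and ATF1 (here the CREB-type factors) were followed through the whole series. These 6 genes were named as a family and were found by symbol in the GENCODE 29 annotation among the 58440 gene identifiers of the deposited tables. All 6 were present in both tables and passed the filter on low counts in both experiments. The series holds 61 RNA libraries of neurons made by driving the transcription factor NGN2 in WTC11, an established line of human induced pluripotent stem cells.

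In experiment 1 there were 8 groups of 4 libraries: wild type (WT), a DLK knockout (DLK KO), an LZK knockout (LZK KO) and a line lacking both (DLK LZK double KO), each either untreated or given vincristine. All 4 lines carried a doxycycline-inducible NGN2 cassette, and the labels name a single line for each genotype. In experiment 2 the neurons expressed the CRISPR interference machinery, which silences a promoter without cutting it, and carried a lentiviral guide RNA (gRNA) that targets ATF2 (ATF2 gRNA), JUN (JUN gRNA) or, with a scrambled sequence, no gene (Control gRNA). These 6 groups held 5 libraries each, except ATF2 gRNA with vincristine, which had 4. In both experiments vincristine, a drug that stops microtubules from assembling, was given at 5 nM for 16 hours from day 14, and the untreated cultures received the vehicle DMSO. The labels do not say that libraries of a group came from separate cultures, so the p-values measure the spread between these samples, which may be technical.

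All 6 proteins are basic leucine zipper transcription factors, which bind DNA as pairs. ATF2, ATF7 and CREB5 form a subfamily that can pair with JUN, and ATF2 and ATF7 are switched on when stress kinases such as JNK phosphorylate their activation domains. DLK and LZK are kinases that sit above JNK in the response of neurons to axon and microtubule damage. CREB1, CREM and ATF1 form a second subfamily, activated by cAMP- and calcium-dependent kinases, that recognises the cAMP response element, and CREM also has an internal promoter that makes the short repressor ICER.

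A CREB5 and a CREM promoter are shown because they hold the only matches to the cAMP response element TGACGTCA or to the AP-1 element TGACTCA among the 17 windows looked at. Together the windows cover 5 of the 6 members, and the counts per gene do not tell which transcript start was used. These windows are the 250 bases before the transcript starts given by RefSeq (GRCh38.p14), of which 3 belonged to CREB5, 7 to CREM, 3 to ATF1, 3 to ATF7 and 1 to CREB1. ATF2 was not searched. Matches are in capitals and were searched on both strands.
CREB5, chr7:28685883-28686132, plus strand: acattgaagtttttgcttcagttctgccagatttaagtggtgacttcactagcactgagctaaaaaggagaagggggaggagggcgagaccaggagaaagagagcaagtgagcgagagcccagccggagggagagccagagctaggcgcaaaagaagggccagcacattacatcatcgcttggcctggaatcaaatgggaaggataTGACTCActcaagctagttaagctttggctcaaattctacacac
CREM internal promoter, chr10:35195652-35195901, plus strand: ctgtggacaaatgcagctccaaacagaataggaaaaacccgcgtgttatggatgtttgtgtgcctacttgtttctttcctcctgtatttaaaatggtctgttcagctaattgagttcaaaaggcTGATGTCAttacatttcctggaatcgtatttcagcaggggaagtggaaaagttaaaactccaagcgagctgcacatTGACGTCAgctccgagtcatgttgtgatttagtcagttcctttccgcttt
The CREB5 window had TGACTCA with its first base 44 bases before the transcript start, and 4.20% of all 35116 RefSeq windows of this length held that motif on either strand. The CREM window had TGACGTCA 50 bases before the start, a motif held by 1.65% of windows. It also had TGATGTCA, the reverse of TGACATCA, 126 bases before the start, and other CREM windows held this variant on either strand. Of all windows 2.37% held that variant, which was added to the search after the sequences had been seen. The shorter TGACG, held by 21.2% of all windows, was in windows of CREM and ATF7. These shares are per window, and CREM and CREB5 had several windows each. The C/EBP-ATF element TGACGCAA, held by 0.478% of windows, was in none of the 17, and these letters are a description of the windows, not evidence of binding.

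Libraries of experiment 1 held 8.41 M to 14.6 M counts in genes and those of experiment 2 held 38.9 M to 88.4 M, so the experiment 2 values of the rarer members rest on more reads. The 9 neuron markers summed to between 3908 and 7333 CPM (counts scaled to a common library total) in every library, while the 3 astrocyte markers reached at most 2.80 CPM and the 3 microglia markers at most 0.773. Of the 5 pluripotency markers, POU5F1, NANOG and TDGF1 averaged at most 0.818, 0.222 and 0.150 CPM in any group, but LIN28A reached 55.0 CPM in the treated double KO and DPPA4 19.6 CPM in untreated ATF2 gRNA neurons. The 3 markers of dividing cells summed to 9.98 to 87.1 CPM in experiment 1, highest in LZK KO, and to 6.12 to 13.9 CPM in experiment 2. The 3 oligodendrocyte markers summed to 12.6 to 43.4 and 5.56 to 23.3 CPM, mostly MBP, with MOG at 0.277 CPM or less in every group mean. The sum of the 4 neural progenitor markers ranged from 95.2 to 2524 CPM and was 86.3% to 99.0% NES in each group. It is given again below where it moved with a member. In bulk RNA, fewer cells of a type and less RNA per cell cannot be told apart.

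ATF2 lies on chromosome 2 (GRCh38, 175072250 to 175168382, minus strand), CREB1 on chromosome 2 (207529737 to 207603431, plus strand) and CREB5 on chromosome 7 (28299321 to 28825894, plus strand). CREM lies on chromosome 10 (35126791 to 35212958, plus strand). ATF1 (50763710 to 50821122, plus strand) and ATF7 (53507856 to 53626410, minus strand) both lie on chromosome 12. Counts are per gene over all its exons, so ICER is not told apart from full-length CREM. Of the 7980 exon bases of ATF7, 1456 (18.2%) are shared with a readthrough gene on the same strand, AC023509.3, and 25.6% with an antisense gene, so its level is the least certain of the 6.

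In untreated WT, on the scale of reads per length (RPKM), ATF2 was the most abundant member at 24.5 ± 2.44 (SD, n = 4), followed by CREB1 at 10.4 ± 0.34. CREB5 at 4.15 ± 0.27 and ATF7 at 3.69 ± 0.23 had overlapping libraries. ATF1 stood at 3.34 ± 0.28 and CREM, the lowest, at 1.62 ± 0.18. With vincristine, WT CREB5 stood at 24.9 ± 1.03 RPKM and its libraries overlapped those of ATF2 at 23.7 ± 4.02. CREB1 followed at 11.9 ± 0.78, ATF1 at 4.24 ± 0.42, ATF7 at 3.07 ± 0.30 and CREM at 1.61 ± 0.32 RPKM.

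CREB5 was the member with the largest response to vincristine. In untreated WT its 4 libraries read 45.3, 47.6, 48.2 and 52.9 CPM. With vincristine they read 274, 288, 298 and 300.3 CPM, all far above the untreated ones. The rise was 5.98-fold (log2 2.58 ± 0.11 SE, edgeR quasi-likelihood test, adjusted p = 6.06e-20). By fold, CREB5 was the 79th highest of the 18235 genes tested.

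The knockout of either kinase left a rise but from a lower start. DLK KO read 8.28, 10.0, 11.5 and 14.4 CPM untreated and 41.6, 45.2, 46.8 and 47.1 CPM with vincristine, so its treated libraries only came up to the untreated WT range. LZK KO read 18.2, 21.0, 21.3 and 23.9 CPM untreated and 79.0, 87.4, 88.7 and 96.8 CPM with vincristine. The rises were log2 2.03 ± 0.12 in DLK KO and 2.06 ± 0.12 in LZK KO (adjusted p = 1.72e-14 and 2.54e-15, edgeR). In the DLK LZK double KO, 7.80, 8.01, 8.34 and 8.85 CPM untreated stood against 5.85, 6.29, 8.72 and 11.3 CPM with vincristine. These overlapped, and the change was -0.02 ± 0.15 (95% interval -0.32 to 0.28, adjusted p = 0.985).

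The differences between these responses were tested directly. The response was smaller than in WT by 0.55 ± 0.16 on the log2 scale in DLK KO (adjusted p = 0.0148) and by 0.52 ± 0.16 in LZK KO (adjusted p = 0.0221, edgeR). Both of these calls rested on single libraries. The DLK KO difference was -0.41 (adjusted p = 0.0797) without DLK KO untreated replicate 2. The LZK KO difference was -0.46 (adjusted p = 0.0668) without LZK KO untreated replicate 2 and -0.47 (adjusted p = 0.0547) without LZK KO vincristine replicate 1. The double KO response was lower by 2.60 ± 0.18 than that of WT, by 2.05 ± 0.19 than that of DLK KO and by 2.08 ± 0.19 than that of LZK KO (adjusted p = 3.75e-13, 2.37e-08 and 4.63e-09, edgeR). Those 3 calls held without any single library.

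In experiment 2 CREB5 rose from 24.6, 27.4, 27.5, 30.4 and 32.0 CPM in untreated Control gRNA to 148, 151, 154, 157 and 162 CPM with vincristine, 5.42-fold (log2 2.44 ± 0.09, adjusted p = 1.96e-22, edgeR). With JUN knocked down it rose from 18.5, 20.0, 24.5, 24.7 and 25.0 CPM to 42.6, 47.7, 48.7, 57.1 and 61.9 CPM, 2.29-fold (1.20 ± 0.09, adjusted p = 6.21e-13). With ATF2 knocked down it read 4.99, 5.12, 5.18, 5.51 and 6.42 CPM untreated and 5.72, 6.78, 6.87 and 7.21 CPM with vincristine. These overlap, and the change of 0.29 ± 0.11 (95% interval 0.06 to 0.52) did not pass (adjusted p = 0.144). The response was lower than in Control gRNA by 2.15 ± 0.14 under ATF2 gRNA and by 1.24 ± 0.12 under JUN gRNA (adjusted p = 2.65e-14 and 8.32e-10). It was lower under ATF2 gRNA than under JUN gRNA by 0.91 ± 0.14 (adjusted p = 6.23e-05, edgeR). JUN RNA was itself lower under ATF2 gRNA, by 2.08 ± 0.10 in untreated cultures. How far JUN was lowered under JUN gRNA is not given here.

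**Figure D1:**
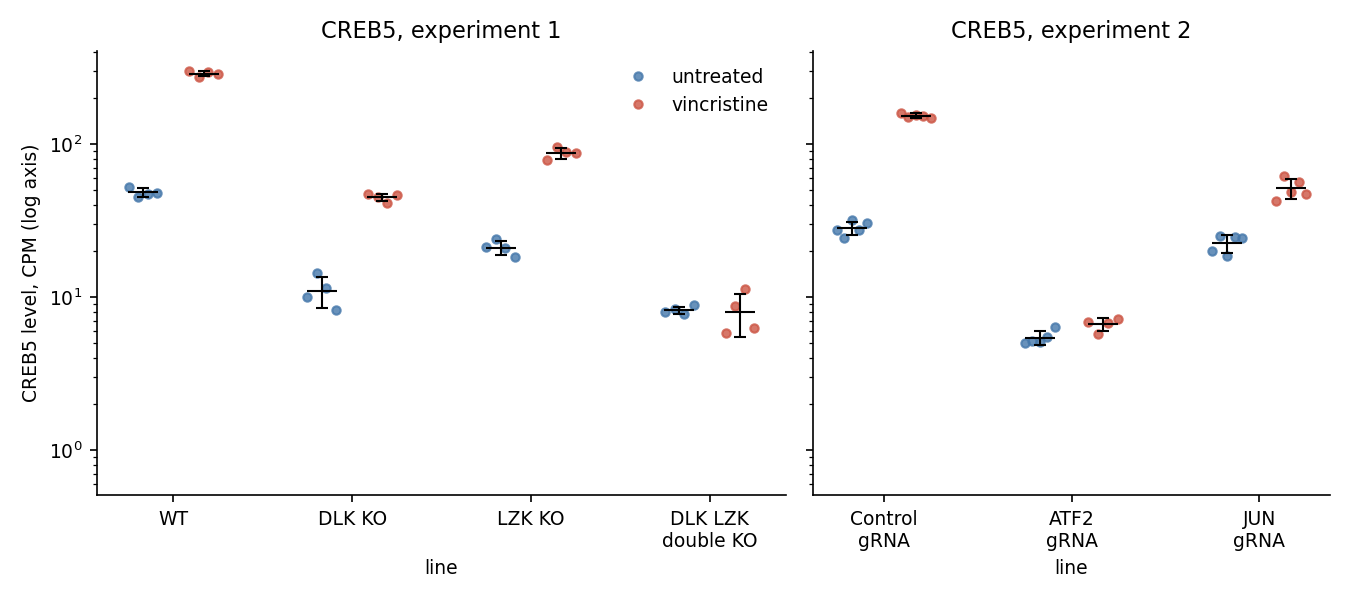
CREB5 level in every library (points, CPM on a log axis) by line, untreated in blue and with vincristine in red, with the group mean and SD as bars. The treated libraries stand above the untreated ones in every line but the DLK LZK double KO and the ATF2 gRNA neurons, where they overlap.

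The sum of the neural progenitor markers, almost all of it NES, moved alongside CREB5. Their sum was 729 to 771 CPM in untreated WT and 914 to 1942 with vincristine, and 102 to 109 against 95.2 to 102 in the double KO. It was 1309 to 1398 CPM in untreated Control gRNA and 2427 to 2524 with vincristine, and 737 to 816 against 698 to 806 under ATF2 gRNA. The other markers of the list stayed low in every group. PAX6 stood at 1.63 to 5.34 CPM, SOX1 at 0.681 to 4.44 and SOX2 at 5.30 to 28.1. They did not all follow CREB5. SOX2 averaged 22.4 CPM in untreated WT and 20.5 with vincristine. It averaged 14.5 and 22.2 CPM in Control gRNA, and 22.4 and 28.1 under ATF2 gRNA. SOX1 averaged 1.33 and 1.23 CPM in Control gRNA, and 3.58 and 4.44 under ATF2 gRNA. The part of the progenitor markers in the CREB5 result was not tested.

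The other 5 members moved little with the drug. In WT, 3 of the 6 members passed the test, against 30.2% of all genes tested, and in Control gRNA 3 of 6, against 35.3%. In DLK KO, LZK KO and JUN gRNA, CREB5 was the 1 member called, against 6.53%, 3.88% and 15.9% of all genes. In DLK KO CREB1 changed by -0.18 ± 0.06 (adjusted p = 0.0525) and was called as well with RLE factors (-0.19), with DESeq2 (-0.19), among genes averaging at least 1 CPM (-0.18) and in a fit of only these groups (-0.18), which makes 2 members. In the double KO no member was called by edgeR or by DESeq2, against 0.0658% of all genes (12 of 18235), and none had an unadjusted p under 0.05. Under ATF2 gRNA no member was called by edgeR or by DESeq2, against 6.1%, and 2 (CREB5 and ATF1) had an unadjusted p under 0.05.

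ATF2 itself did not pass in any of the 7 lines. Its change was -0.05 ± 0.11 in WT and 0.14 ± 0.12 in Control gRNA, with 95% intervals of -0.27 to 0.17 and -0.10 to 0.39. ATF7 read 28.3, 28.4, 28.8 and 32.2 CPM in untreated WT and 21.9, 23.3, 25.5 and 27.3 with vincristine, with no overlap. It fell by 0.26 ± 0.09 (adjusted p = 0.0209, edgeR). That call ended without WT untreated replicate 4 (-0.22, adjusted p = 0.0803), without WT vincristine replicate 2 (-0.21, adjusted p = 0.0881), without the filter on low counts (-0.27, adjusted p = 0.0712) and in a fit of only these groups (-0.27, adjusted p = 0.0731). In Control gRNA its change was -0.03 ± 0.07 (adjusted p = 0.770).

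CREB1 rose by 0.20 ± 0.06 in WT (adjusted p = 0.00927, edgeR), from 96.2, 98.0, 99.5 and 104 CPM to 108, 109.9, 113 and 125 CPM. Without WT vincristine replicate 4 the change was 0.15 (adjusted p = 0.0530), and it also lost the call without the low-count filter (adjusted p = 0.163) and in a fit of only these groups (adjusted p = 0.128). In Control gRNA CREB1 changed by 0.15 without passing (adjusted p = 0.0688, edgeR). There it was called by DESeq2 (0.16, adjusted p = 0.0487) and among genes averaging at least 1 CPM (0.17). It was also called without Control gRNA untreated replicate 3 (0.21) or vincristine replicate 4 (0.18), and in no other alternative. The CREB1 response was lower than in WT by 0.38 ± 0.08 in DLK KO (adjusted p = 0.00110) and by 0.30 ± 0.08 in LZK KO (adjusted p = 0.0134). With CREB5, 2 of 6 members thus differed from WT in each of these lines, against 19.4% of genes for DLK KO and 12.4% for LZK KO. The LZK KO difference of CREB1 was not called without the filter (-0.28, adjusted p = 0.195) or in a fit of only these groups (-0.30, adjusted p = 0.135). In the double KO only CREB5 differed from WT (19.4% of all genes), from DLK KO (1.14%) and from LZK KO (0.916%).

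Among the 7 lines CREM passed the test with vincristine in Control gRNA alone. There it rose by 0.51 ± 0.09 (adjusted p = 9.23e-06, edgeR), from 9.24, 11.5, 11.9, 12.6 and 12.6 CPM to 14.7, 15.5, 16.4, 16.9 and 19.1 CPM, with no overlap. Under ATF2 gRNA its change was 0.06 ± 0.10 and under JUN gRNA 0.03 ± 0.09, neither of which passed. These responses were smaller than in Control gRNA by 0.45 ± 0.13 (adjusted p = 0.0111) and by 0.48 ± 0.13 (adjusted p = 0.00635). With CREB5, 2 of 6 members differed from Control gRNA in each knockdown, against 20.6% of genes for ATF2 gRNA and 15.8% for JUN gRNA. Between the 2 knockdowns only CREB5 differed, against 2.83%. In WT the CREM change was -0.02 ± 0.14 (95% interval -0.30 to 0.26) at 81 to 144 counts per library, and the difference between the experiments was not tested.

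ATF1 rose by 0.31 ± 0.13 in Control gRNA (adjusted p = 0.0485, edgeR) and by 0.34 ± 0.13 in WT without passing (adjusted p = 0.0523). The Control gRNA call was lost in 7 of 16 alternatives. Without Control gRNA untreated replicate 4 the change was 0.19 (adjusted p = 0.241). Without untreated replicate 2 or 3, or vincristine replicate 2, 4 or 5, it was 0.32, 0.33, 0.31, 0.33 and 0.29 (adjusted p = 0.0679, 0.0610, 0.0814, 0.0533 and 0.0977), and with the replicate number as a block 0.32 (adjusted p = 0.0565).

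**Figure D2:**
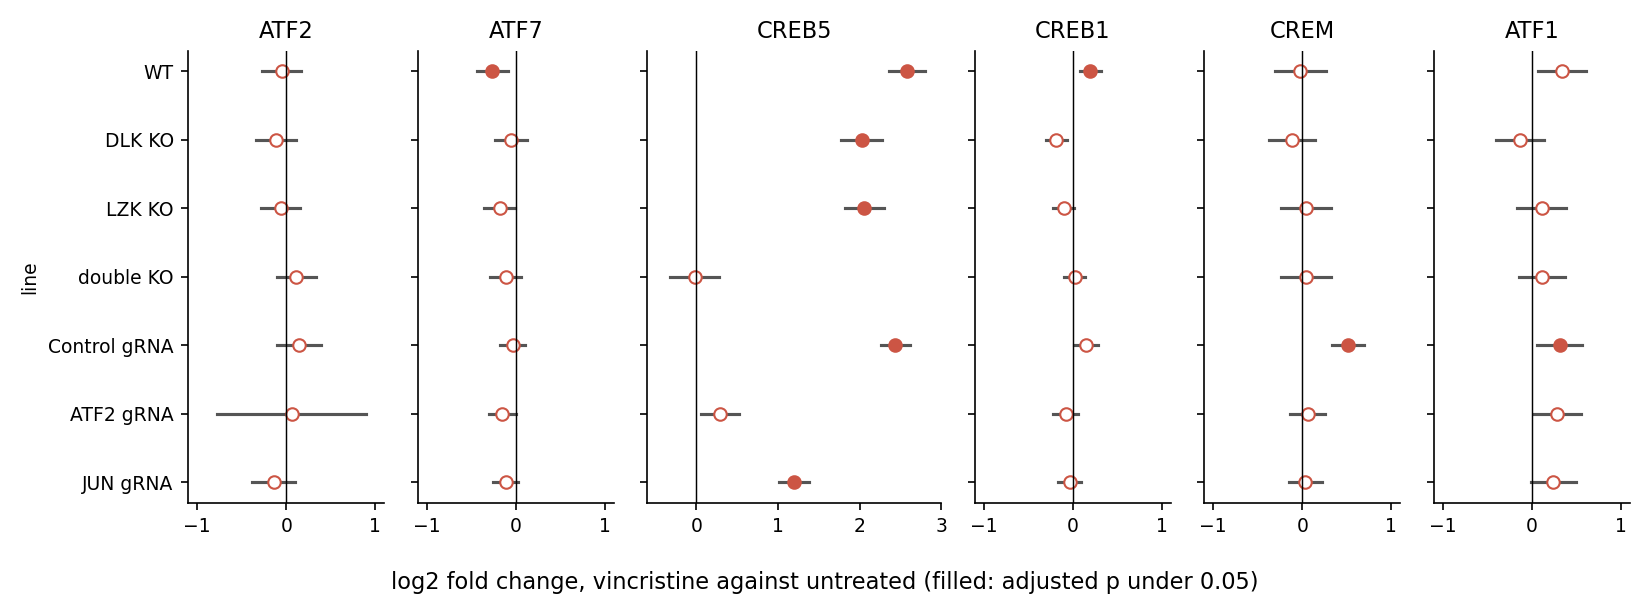
Log2 fold change of each member with vincristine against untreated in the 7 lines (points, with 95% intervals as lines; filled points passed at an adjusted p under 0.05). CREB5 reaches 2.58 in WT and lies at -0.02 in the DLK LZK double KO, while no other member changes by more than 0.51.

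Before any drug, CREB5 was already lower in each knockout line and in both knockdowns. Against WT it was lower by 2.13 ± 0.12 in DLK KO (22.8% of the WT mean), by 1.20 ± 0.12 in LZK KO (43.5%) and by 2.55 ± 0.13 in the double KO (17.0%), with no overlapping libraries (adjusted p = 2.20e-16, 1.68e-10 and 1.30e-18, edgeR). Against Control gRNA it was lower by 2.38 ± 0.10 under ATF2 gRNA (19.2%) and by 0.34 ± 0.09 under JUN gRNA (79.5%; adjusted p = 5.16e-21 and 0.00900), and the JUN gRNA libraries overlapped the controls. The ATF2 gRNA neurons stood below the JUN gRNA neurons by 2.05 ± 0.10. The 9 tested genes starting within 1 Mb of CREB5 had a median of 0.21 in DLK KO, 0.35 in the double KO and 0.71 under ATF2 gRNA. The tested neighbours were not the same set in both experiments, as JAZF1-AS1 was tested in experiment 2 only. Of these neighbours JAZF1 was lower, as CREB5 was, by 0.26 ± 0.07 in DLK KO, by 0.74 ± 0.07 in the double KO and by 0.14 ± 0.05 under ATF2 gRNA (adjusted p = 0.00371, 4.44e-11 and 0.0357, edgeR). TRIL was higher, by 1.23 ± 0.38 in DLK KO and by 2.56 ± 0.33 in the double KO (adjusted p = 0.0110 and 3.03e-08, edgeR). Both genes were singled out after their values were seen.

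In treated cultures the gap was wider. CREB5 was lower than in treated Control gRNA by 4.54 ± 0.11 under ATF2 gRNA, at 4.31% of the control mean, and by 1.58 ± 0.09 under JUN gRNA, at 33.5% (adjusted p = 4.62e-28 and 2.58e-17, edgeR). These comparisons use the same treated libraries as the responses above.

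Of the 6 members, 4 differed from WT in untreated DLK KO (1 higher, 3 lower), against 34.5% of all genes (16.5% higher, 17.9% lower). In LZK KO 2 differed (1 higher, 1 lower), against 33.9% (17.1% higher, 16.8% lower), and in the double KO 3 (2 higher, 1 lower), against 45.7% (23.6% higher, 22.1% lower). CREM was the member higher in DLK KO: its libraries read 12.8, 16.6, 17.7 and 17.9 CPM against 7.84, 9.14, 9.79 and 10.1 in WT, a rise of 0.81 ± 0.13 (176% of the WT mean, adjusted p = 5.42e-06, edgeR). It did not pass in LZK KO (0.21 ± 0.14) or in the double KO (-0.08 ± 0.14). CREB1 was higher in LZK KO by 0.37 ± 0.06 and in the double KO by 0.22 ± 0.06 (adjusted p = 3.20e-06 and 0.00215). ATF1 passed in none of the 3 lines, with changes of 0.29 to 0.33, though in DLK KO (adjusted p = 0.0510) DESeq2 called it (0.33, adjusted p = 0.0457), as did 4 other alternatives. In the double KO (adjusted p = 0.0566, edgeR) it was called in a fit of only these groups (0.29, adjusted p = 0.0245). In LZK KO (adjusted p = 0.104, edgeR) it was called without LZK KO untreated replicate 1 (0.37, adjusted p = 0.0417) or replicate 3 (0.38, adjusted p = 0.0358). In the same libraries the neuron markers summed to 3966 to 4370.5 CPM in DLK KO and 6667 to 6964 in the double KO, against 5300.0 to 5566 in WT. The pluripotency markers, mostly LIN28A, summed to 52.9 to 59.1 CPM in the double KO, 10.3 to 14.3 in DLK KO and 13.2 to 18.8 in LZK KO against 2.81 to 3.35 in WT. NANOG averaged 0.117 CPM in the double KO, 0.0221 in DLK KO and 0.0231 in LZK KO against 0.222 in WT. POU5F1 averaged 0.670, 0.489 and 0.195 CPM against 0.292. The part of these marker shifts in the member results was not tested.

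The 3′ end of ATF7 lies 7.79 kb from MAP3K12, the gene of DLK. ATF7 was lower in DLK KO by 0.29 ± 0.09 (adjusted p = 0.00909, edgeR), which lost its call without DLK KO untreated replicate 4 (-0.24, adjusted p = 0.0533) and without the filter on low counts (-0.28, adjusted p = 0.0528). In the double KO it was higher by 0.20 ± 0.09 (adjusted p = 0.0489), a call lost in 11 of 14 alternatives, among them DESeq2 (0.20, adjusted p = 0.0553) and the omission of any library but WT untreated replicate 4 (0.18 to 0.22). Its 31 tested neighbours within 1 Mb had a median of 0.06 in DLK KO and -0.38 in the double KO.

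ATF2 was the member whose level differed most between DLK KO and WT apart from CREB5, and it lay in a stretch where most genes were lower. Untreated DLK KO read 64.5, 67.8, 73.8 and 77.8 CPM against 121, 142, 149 and 151 in WT, and with vincristine it stood at 48.2% of treated WT. Among 380 other genes from 40 Mb before ATF2 to the end of chromosome 2 (mean log2 CPM of at least 1), the median change was -0.89 (quartiles -1.17 and -0.69) and 85.3% were called lower, against 16.8% of the 500 genes more than 50 Mb before ATF2 (median 0.05). In the treated libraries, which the first value did not use, the medians of the log2 ratio of group means were -0.96 and -0.02. The same 380 genes had medians of 0.08 in LZK KO and 0.05 in the double KO. In the double KO, which also lacks DLK, ATF2 read 141, 146, 151 and 156 CPM untreated, or 105% of WT, and 118% of WT with vincristine. These libraries overlapped WT, and the untreated change was 0.07 ± 0.11 (adjusted p = 0.614, edgeR).

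CREB1 lies in the same stretch, 32.5 Mb beyond ATF2, and was near its WT level in untreated DLK KO. Its untreated libraries read 95.4, 97.3, 97.9 and 101 CPM in DLK KO and 96.2, 98.0, 99.5 and 104 in WT, a change of -0.02 ± 0.06 (95% interval -0.14 to 0.10, adjusted p = 0.824, edgeR). Its 12 tested neighbours within 1 Mb had a median of -1.08, ranged from -1.56 to -0.33, and 10 were called lower. Of the 380 genes of the stretch, 28 (7.37%) had a change at or above that of CREB1. With vincristine CREB1 stood at 75.7% of treated WT (log2 ratio of means -0.40), between the stretch and the rest of the chromosome.

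**Figure D3:**
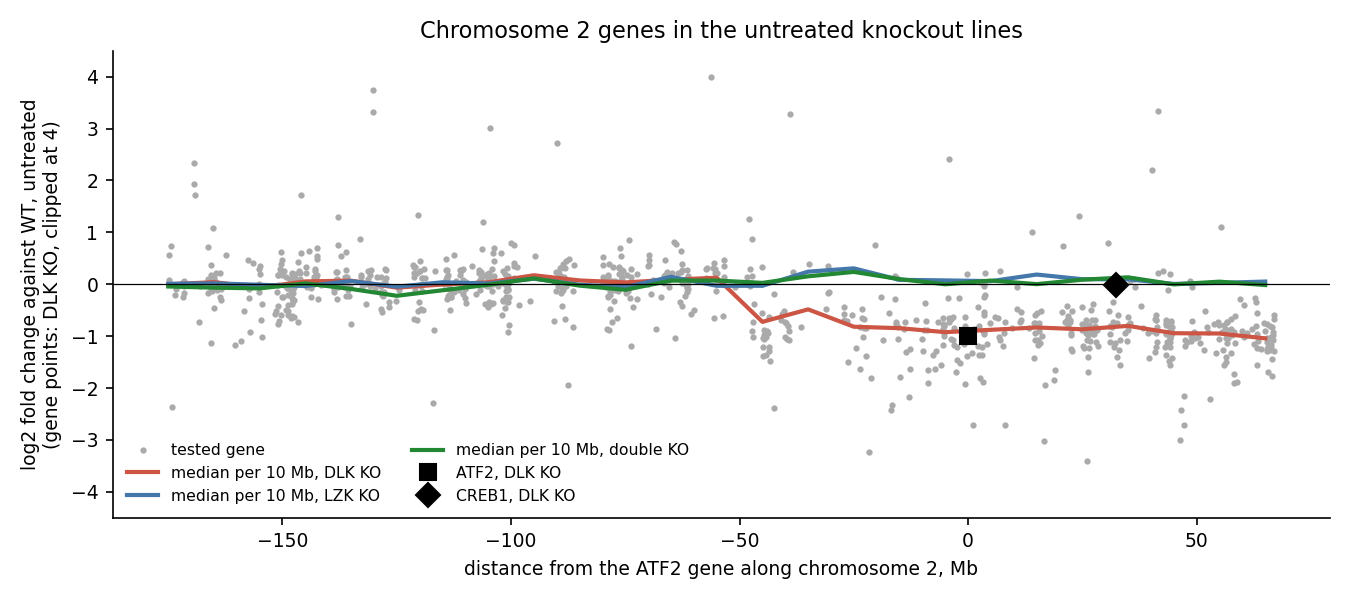
Log2 fold change against WT of chromosome 2 genes (grey points, untreated DLK KO) by distance from ATF2 in Mb, with the median per 10 Mb in DLK KO (red), LZK KO (blue) and the DLK LZK double KO (green). The DLK KO median drops between 60 and 40 Mb before ATF2 and stays low to the chromosome end; ATF2 (square) lies on it and CREB1 (diamond) lies at -0.02, above it.

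The knockdown of ATF2 asks whether a related factor is higher when ATF2 is missing. The targeted gene was checked first: its libraries read 111, 114, 129.8, 130.3 and 158 CPM in untreated Control gRNA and 0.106, 0.408, 0.531, 0.707 and 0.877 under ATF2 gRNA, and 0.282, 0.391, 0.623 and 0.997 with vincristine. Among the 6 members 5 were called in the untreated cultures (2 higher, 3 lower), against 39.9% of all genes (19.7% higher, 20.2% lower). In the treated cultures 5 were called (1 higher, 4 lower), against 42.4% (19.4% higher, 23% lower). ATF2 is itself 1 of these 5 each time, which leaves 4 of the 5 relatives. JUN gRNA against Control gRNA gave 2 untreated (11.2% of all genes) and 2 treated (26.7%), and ATF2 gRNA against JUN gRNA gave 3, all lower and ATF2 among them, against 34.8% (16.5% higher, 18.2% lower). There ATF1 missed the threshold (0.31, adjusted p = 0.0543) and passed it in 9 alternatives, DESeq2 among them (0.32, adjusted p = 0.0439). These treated and untreated comparisons share no libraries.

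No ATF2-type relative was higher. ATF7, a close relative of ATF2, read 36.0, 37.6, 38.2, 39.8 and 43.4 CPM in untreated Control gRNA and 26.3, 31.9, 32.0, 32.1 and 33.1 under ATF2 gRNA. All 5 knockdown libraries lay below all 5 controls, and ATF7 fell by 0.33 ± 0.07 to 79.7% (adjusted p = 0.000156, edgeR). In treated cultures 37.0, 37.1, 37.9, 38.9 and 39.4 CPM stood against 22.3, 26.6, 30.8 and 32.2, a fall by 0.44 ± 0.08 to 73.5% (adjusted p = 3.26e-06). Both ATF7 calls held in all alternatives run (16 untreated, 15 treated). ATF7 under JUN gRNA did not pass, with changes of -0.04 ± 0.07 and -0.12 ± 0.07. CREB5, the other ATF2-type relative, was lower still, as given above.

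Cell markers moved in the same libraries. The neuron markers summed to 4739.6 to 5169.9 CPM in untreated ATF2 gRNA against 6073 to 6671 in Control gRNA, and to 4400.4 to 4645 against 5650.3 to 6117 with vincristine, with no overlap. The pluripotency markers summed to 33.8 to 40.2 CPM against 9.58 to 13.5 untreated and to 30.7 to 36.6 against 6.80 to 9.58 with vincristine. Nearly all of these sums was LIN28A and DPPA4. POU5F1 averaged 0.368 CPM against 0.396 untreated and 0.356 against 0.320 with vincristine. NANOG and TDGF1 averaged at most 0.0185 and 0.00314 CPM in these groups. The part of these marker shifts in the changes of ATF7, CREB5, ATF1, CREB1 and CREM was not tested.

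Of the CREB-type factors, ATF1 was the member higher in both conditions. It read 6.10, 9.71, 9.74, 10.5 and 11.1 CPM in untreated Control gRNA and 8.73, 11.2, 13.0, 13.3 and 15.1 under ATF2 gRNA, which overlap, and the rise was 0.38 ± 0.13 (130% of control, adjusted p = 0.0148, edgeR). It lost its call without Control gRNA untreated replicate 4 (0.26, adjusted p = 0.0878), without ATF2 gRNA untreated replicate 2 (0.30, adjusted p = 0.0644) and in a fit of only these groups (adjusted p = 0.0617). In treated cultures it read 11.0, 11.1, 11.6, 12.0 and 13.1 against 13.4, 14.6, 14.9 and 17.0 CPM, with no overlap, a rise of 0.35 ± 0.13 (127%, adjusted p = 0.0286). That call was lost without ATF2 gRNA vincristine replicate 2 (0.29, adjusted p = 0.104), Control gRNA vincristine replicate 1 (0.33, adjusted p = 0.0629) or replicate 3 (0.33, adjusted p = 0.0558). Under JUN gRNA ATF1 changed by 0.07 ± 0.13 and 0.00 ± 0.13.

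CREB1 was higher by 0.16 ± 0.06 in the untreated knockdown (112%, adjusted p = 0.0423, edgeR), with overlapping libraries, and the call was lost in 9 of 16 alternatives. Leaving out ATF2 gRNA untreated replicate 2, 4 or 5 gave 0.12, 0.17 and 0.17, and dropping replicate 1, 2 or 4 of the untreated Control gRNA gave 0.14, 0.11 and 0.15, none of them called. In treated cultures it changed by -0.07 ± 0.07 (adjusted p = 0.467). CREB1 was also higher under JUN gRNA, by 0.23 ± 0.06 (adjusted p = 0.0157), which was lost without Control gRNA untreated replicate 1 (0.21) or 2 (0.17) or JUN gRNA untreated replicate 4 (0.20), and it did not differ beyond the test between the 2 knockdowns (-0.07 ± 0.06, 95% interval -0.20 to 0.07). CREM changed by 0.20 ± 0.09 untreated without passing (adjusted p = 0.0821). It was lower in treated cultures by 0.25 ± 0.10 (adjusted p = 0.0317), a call lost in 6 of 15 alternatives, among them those without ATF2 gRNA vincristine replicate 3 (-0.17) or 5 (-0.24) and without Control gRNA vincristine replicate 1 (-0.24) or 5 (-0.19).

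**Figure D4:**
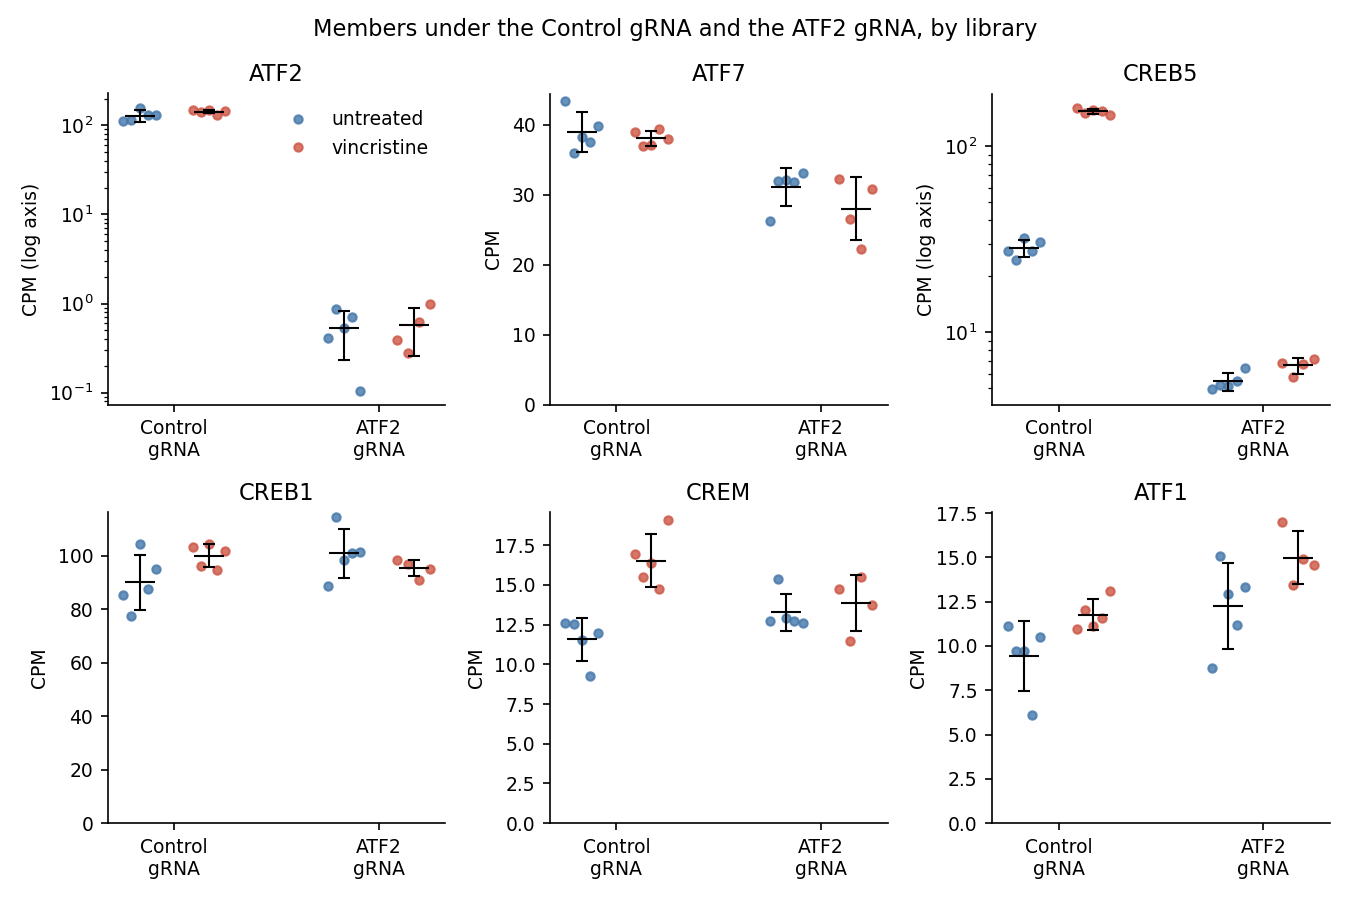
Level of each member in CPM in every library of Control gRNA and ATF2 gRNA, untreated in blue and with vincristine in red, with the mean and SD as bars; ATF2 and CREB5 are on log axes. ATF2 falls to 0.526 CPM, ATF7 and CREB5 lie below their controls, ATF1 averages 130% and 127% of its controls, and CREB1 and CREM lie between 83.9% and 115% of theirs.

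Summed per length, ATF2-type transcript was 29.7 ± 3.38 RPKM in untreated Control gRNA and 4.45 ± 0.37 under ATF2 gRNA, 15.0% of the control. With vincristine the sums were 42.7 ± 1.27 and 4.18 ± 0.60 RPKM, or 9.78%. ATF7 made up 87.5% and 84.0% of what was left. With the ATF7 length reduced by its shared bases these remnants were 5.32 and 4.96 RPKM. The CREB-type sums were 14.8 ± 1.42 and 17.3 ± 1.95 RPKM untreated and 17.6 ± 0.78 and 17.8 ± 0.84 with vincristine. In WT the ATF2-type sum rose from 32.3 ± 2.28 to 51.6 ± 4.05 RPKM with vincristine, of which CREB5 was 48.2%. In the double KO it was 30.7 ± 1.04 and 32.5 ± 0.64 RPKM.

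**Figure D5:**
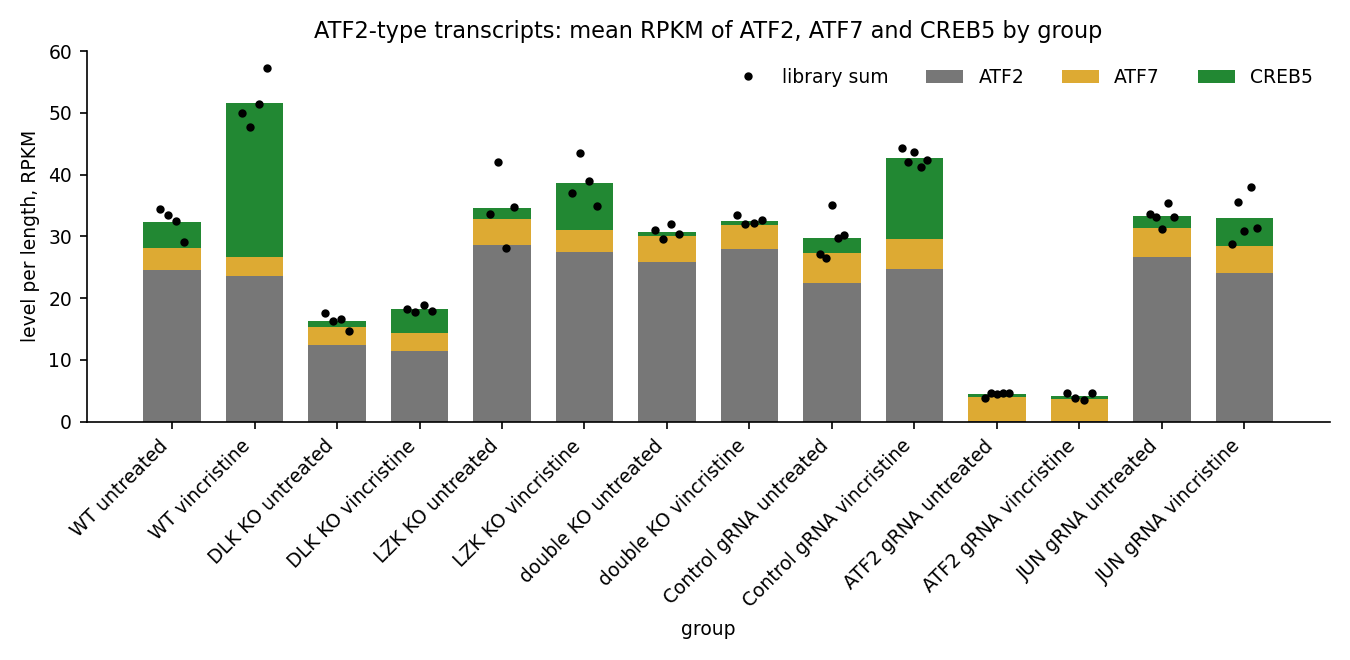
Mean RPKM of ATF2 (grey), ATF7 (yellow) and CREB5 (green) stacked by group, with the sum of each library as a black point. The ATF2 gRNA groups keep 4.45 and 4.18 RPKM, mostly ATF7, and the CREB5 share is largest in treated WT at 48.2%.

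ATP5MC3, a mitochondrial ATP synthase subunit gene that lies next to ATF2 beyond its promoter, fell by 1.47 ± 0.04 under ATF2 gRNA (adjusted p = 1.13e-31, edgeR). This gene was singled out after its value was seen, for its place beside the silenced promoter. Whether lower ATP5MC3 bears on the levels of the other members was not tested.

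Most partner genes were called with the drug in WT and Control gRNA. Among the bZIP partners (JUN, FOS, ATF3 and MAF relatives), 12 of the 14 tested rose in WT with vincristine (85.7%, against 30.2% of all genes; list median 0.96, all genes 0.00) and 11 of 15 rose and 2 fell in Control gRNA (86.7%, against 35.3%; median 0.95). ATF3, a stress-induced repressor that pairs with JUN, rose by 3.98 ± 0.11 in WT and 3.48 ± 0.07 in Control gRNA. JDP2, a JUN partner that acts as a repressor, rose by 2.56 ± 0.18 and 1.07 ± 0.09, and CEBPG, a partner of ATF4, by 1.61 ± 0.07 and 0.98 ± 0.04 (edgeR). Under ATF2 gRNA 6 of 15 rose with the drug (40% against 6.1% of all genes; median 0.26) and under JUN gRNA 8 of 15 (53.3% against 15.9%; median 0.62). In the double KO edgeR called none of 14, and 1 had an unadjusted p under 0.05.

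Untreated ATF2 gRNA neurons had 7 of 15 partners higher and 5 lower than Control gRNA, 80% of the list against 39.9% of all genes. JUN fell by 2.08 ± 0.10 and MAFF, a small MAF factor, fell by 2.40 ± 0.20. JUNB, a JUN relative, rose by 1.40 ± 0.11. Among the 16 more distant CREB and ATF relatives 4 rose and 4 fell, 50% of that list. ATF5, a stress-response factor of the ATF4 group, rose by 2.78 ± 0.06, from 21.9 ± 2.09 to 149.7 ± 8.49 CPM (n = 5), and it also rose with vincristine, by 2.03 ± 0.06 in Control gRNA and 1.95 ± 0.12 in WT. HLF, a circadian bZIP factor, fell by 1.67 ± 0.29 and ATF6, a sensor of endoplasmic reticulum stress, rose by 0.50 ± 0.04.

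Most textbook target genes of CREB that were called rose, both with the drug and in the ATF2 knockdown. With vincristine 14 of 20 tested rose and 2 fell in WT (80% of the list against 30.2% of all genes; median 0.79), and 13 rose and 4 fell in Control gRNA (85% against 35.3%; median 0.61). Under ATF2 gRNA 5 of 20 rose with the drug (25% against 6.1%; median 0.08). Under JUN gRNA 10 rose and 3 fell (65% against 15.9%; median 0.22). In the double KO edgeR called none of 20, against 0.0658% of all genes, and none had an unadjusted p under 0.05. In the untreated knockdown 11 of 20 rose and 3 fell (70% of the list against 39.9% of all genes; median 0.60, all genes 0.02). SST, which encodes somatostatin, rose by 7.13 ± 0.17, from 1.18 ± 0.22 to 165 ± 14.1 CPM (n = 5). ARC, a synaptic immediate-early gene, rose by 3.31 ± 0.15, BDNF, a neurotrophin, by 3.25 ± 0.13, and NR4A1, an immediate-early nuclear receptor, by 1.66 ± 0.21 (edgeR). In the same comparison CREB1 stood at 112% and CREM at 115% of the control. CREM is itself on the list of target genes. The lists also share genes: FOS and JUNB are both targets and bZIP partners, and ATF4 is both a partner and a relative.

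The kinase list held 18 genes that phosphorylate members or, for MAP2K4 and MAP2K7, that act above them on JNK. With vincristine 4 fell in WT, and 2 rose and 4 fell in Control gRNA. That was 22.2% against 30.2% of all genes in WT and 33.3% against 35.3% in Control gRNA. PRKACA, a catalytic subunit gene of protein kinase A, fell by 0.36 ± 0.10 and 0.49 ± 0.04. PRKACB, another catalytic subunit gene of that kinase, rose by 0.33 ± 0.10 in Control gRNA (adjusted p = 0.00902, edgeR). It was not among the 4 genes called in WT. In the untreated ATF2 knockdown 4 kinases rose and 8 fell, 66.7% against 39.9% of all genes, with CAMK2A lower by 2.15 ± 0.19 and MAPK10, the neuronal JNK, by 0.47 ± 0.04. Of 6 coactivators 1 rose in Control gRNA with vincristine, CREBBP by 0.13 ± 0.04, and 4 of 6 rose with the drug under JUN gRNA (66.7% against 15.9% of all genes). In the untreated knockdown 3 rose and 1 fell (66.7%), by 0.26 or less.

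Over the 8 group means of experiment 1, the genes whose log2 level followed CREB5 most closely among 14108 were HRK (Pearson r = 0.996), a BH3-only cell death gene, TBC1D9 (0.993) and CD151 (0.990). Over the 6 groups of experiment 2 they were RAB33B (0.999), ZDHHC1 (0.998) and UBR4 (0.998), and so few means give high values readily: 241 and 745 genes reached 0.9. For ATF2 in experiment 1 they were CWC22 (0.997), SREK1IP1 (0.996) and PRKRA (0.995), of which CWC22 and PRKRA are on chromosome 2 and SREK1IP1 is on chromosome 5. Chromosomes 2 and 5 had the lowest median changes in untreated DLK KO against WT, -0.26 and -0.22. For ATF7 the closest genes were NAAA, RXRG and UTP15 in experiment 1 and SCUBE1, BMP7 and ADAMTS2 in experiment 2. These values are descriptions over few points, with no test.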

How the data were processed

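RNA-seq counts per gene were deposited by the authors in 1 table for each of 2 experiments, with gene length as a column. Per the submitters' processing notes, cutadapt 3.4, STAR and featureCounts (Subread 2.0.1) were used with GRCh38. Per the labels' protocols, libraries were poly(A)-selected and made with a stranded kit, and the strand setting of the counting is not given in the sources used here. Symbols came from GENCODE 29, in which 58320 of 58440 identifiers matched. Each experiment was fitted as a whole with edgeR 4.0.16 (R 4.3.3, limma 3.58.1; filterByExpr, TMM factors, 1 mean per group, robust quasi-likelihood test, Benjamini-Hochberg adjustment over all 18235 or 20759 genes tested), and a gene was called at an adjusted p under 0.05. There were 23 comparisons, 12 in experiment 1 and 11 in experiment 2. CPM use TMM-scaled totals and RPKM divide these by the deposited length. The scripts were tested on simulated data.

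The members, lists and rules were chosen with earlier results of these data known. All 6 members are named throughout. Of a list, at most 6 called genes per comparison could be named, by the largest absolute change at a mean log2 CPM of at least 1. For likeness the 3 genes with the highest Pearson correlation of group means were taken. The chromosome 2 boundaries (40 and 50 Mb) and the TGACATCA motif were chosen after seeing the data. The alternatives were RLE factors, DESeq2 1.42.0, all genes without a filter, only genes averaging at least 1 CPM, a fit restricted to the groups of a comparison, the replicate number as a block, and leaving out each library. Libraries with the same replicate number did not deviate together (correlations from -0.149 to 0.177 over 28 pairs in experiment 1 and from -0.0575 to 0.0404 over 38 pairs in experiment 2), so the block was no part of the main analysis. No pair of replicates was a copy of the same library.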

Additional observations from a re-analysis of the deposited data

Results flagged for a closer look

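In 8 of the 84 sets of libraries (6 members in 14 groups) 1 library stood further from the others than Dixon's 95% critical value allows, and chance alone flags about 5% of sets. These were ATF7 in WT untreated replicate 4 (32.2 CPM) and ATF2 gRNA untreated replicate 1 (26.3 CPM), CREM in WT vincristine replicate 4 (11.9 CPM), Control gRNA untreated replicate 4 (9.24 CPM) and ATF2 gRNA untreated replicate 2 (15.3 CPM), and ATF1 in WT untreated replicate 4 (8.15 CPM), DLK KO vincristine replicate 4 (11.6 CPM) and Control gRNA untreated replicate 4 (6.10 CPM). Control gRNA untreated replicate 4 was the low library for both CREM and ATF1.

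The response to vincristine differed between lines, by a test of the difference (edgeR, adjusted over all genes), in 12 cases. For CREB5 the log2 differences were -0.55 (DLK KO minus WT), -0.52 (LZK KO minus WT), -2.60 (double KO minus WT), -2.05 (double KO minus DLK KO), -2.08 (double KO minus LZK KO), -2.15 (ATF2 gRNA minus Control gRNA), -1.24 (JUN gRNA minus Control gRNA) and -0.91 (ATF2 gRNA minus JUN gRNA). For CREB1 they were -0.38 (DLK KO minus WT) and -0.30 (LZK KO minus WT). For CREM they were -0.45 (ATF2 gRNA minus Control gRNA) and -0.48 (JUN gRNA minus Control gRNA).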

How the results depend on the processing

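Of 49 tested values of single members, 35 kept their direction and side of the threshold in every alternative run and 14 did not. Over the 839 alternatives of these values 782 kept their side, 56 lost the call, 1 gained it and 0 reversed. Across all comparisons 138 member values were tested and 47 called, so this tally leaves out most of the uncalled values. Some of those gained a call in an alternative. Among them were ATF1 in untreated ATF2 gRNA against JUN gRNA and in untreated DLK KO, and CREB1 with vincristine in DLK KO and in Control gRNA. Among list genes 33 of 1110 lost the call and 0 reversed. Members called with vincristine in WT numbered 1 without the filter and 1 with only the groups compared. In DLK KO they numbered 2 (CREB5 and CREB1) with RLE factors, DESeq2, the filter at 1 CPM or only the groups compared. For the LZK KO minus WT effect they numbered 1 without the filter or with only the groups compared, for the double KO minus DLK KO effect 3 (CREB5, ATF2 and CREB1) with only the groups compared, and for untreated ATF2 gRNA against Control gRNA 3 with only the groups compared. In that last comparison CREB1 lost its call without the filter (0.17), with only the groups compared (0.16) and with the replicate block (0.16), ATF1 lost it with only the groups compared (0.38), and CREM gained it with the 1 CPM filter (0.22). In treated cultures CREM lost it with RLE factors (-0.23) and with only the groups compared (-0.24). The cause was not tested.

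Leaving out 1 library at a time, members called ranged from 1 to 3 for the DLK KO minus WT effect, 1 to 2 for LZK KO minus WT, 2 to 4 in untreated LZK KO, 3 to 5 in untreated and in treated ATF2 gRNA, and 1 to 2 in untreated JUN gRNA. Calls in other comparisons moved too. Single omissions ended those of ATF7 in the untreated double KO, ATF1 with vincristine in Control gRNA, and CREB1 and ATF7 with vincristine in WT, among others. They gave ATF1 a call in untreated ATF2 gRNA against JUN gRNA. Untreated ATF2 gRNA values ranged from 0.11 to 0.23 for CREB1 and from 0.26 to 0.49 for ATF1, and treated ones from -0.31 to -0.17 for CREM and from 0.29 to 0.40 for ATF1. The replicate block kept the side of the threshold of 46 of the 49 values, and the calls lost were ATF7 in the untreated double KO (0.20), ATF1 with vincristine in Control gRNA (0.32) and CREB1 above. The lowest count of a library was 66 for CREM, 78 for ATF1 and 53 for CREB5, against 201 for ATF7 and 905 for CREB1, and under ATF2 gRNA it was 5 for ATF2.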
